A study of Mus musculus with 6 samples.

Results

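The genes of the TNF superfamily and of NF-kappaB were compared in renal cortex between mice with unilateral ischemia-reperfusion injury (UIRI) and UIRI mice given bruceine A (BA). Members were taken by gene symbol alone, as Tnf, Rel, Rela, Relb and every symbol that begins with Tnfaip, Tnfrsf, Tnfsf or Nfkb or is one of Traf1 to Traf7. There were 58 such genes among the 19176 rows of the table. They comprised 12 ligands, 19 receptors, 7 TRAF adaptors, 8 Tnfaip genes, 11 genes of NF-kappaB and its regulators, and 1 antisense RNA, Tnfsf13os. Tnfrsf17 and Tnfsf4 match the rule in the mouse annotation and had no row.

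All mice were wild-type C57BL/6J, male and 8 weeks old by the methods. In every mouse, of both groups, the vessels of the left kidney were clamped and the right kidney was removed later, the day before the end. The UIRI group (3 libraries) received vehicle, ethanol in saline, and the UIRI + BA group (3 libraries) received BA at 1 mg/kg, each by a daily intraperitoneal injection for 14 days. BA is a quassinoid from the fruit of Brucea javanica, and the labels spell it Brucine A. Cortex was taken on day 14 and its poly(A) RNA was sequenced. Each library is labelled as 1 replicate with no word on pooling, and p-values measure the spread between these libraries. Cortex of uninjured mice was not analysed here, so the level before injury is not part of the comparison.

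TNF superfamily ligands are mostly made as membrane proteins and bind receptors on neighbouring cells. Receptors with a death domain recruit adaptors that can lead to cell death, and many receptors bind TRAF proteins, which pass the signal to the IkappaB kinases. The kinases mark IkappaB proteins such as the product of Nfkbia for degradation, so that NF-kappaB dimers of the Rel proteins enter the nucleus and switch on genes for cytokines, adhesion molecules and their own inhibitors Nfkbia and Tnfaip3. Much of this control acts on proteins, which RNA sequencing does not measure. In the injured kidney the pathway is known for its part in tubular inflammation and in the recruitment of leukocytes.

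The inhibitor Nfkbia and the ubiquitin-editing enzyme Tnfaip3 are textbook NF-kappaB targets, and the promoters of the members were searched for the kappaB motif. RefSeq promoters (build GRCm38.p6, 250 bases before to 50 after a start site) could be matched for 47 of the 58 members, and 12 of these 47 (25.5%) held the kappaB motif, against 9.6% of 27025 genes with a promoter. The motif searched has 10 letters, which are 3 G, then 1 purine, 2 letters of any kind, 2 pyrimidines and 2 C, on either strand, and matches that overlap were kept. For each of the 12, the match nearest to a start site and wholly before it is shown on the strand of the gene, 5′ to 3′, with the match in capitals and 5 flanking bases on each side.
Nfkb2, chr19:46304726-46304735, first capital 11 bases before the start: cgaaaGGGGCTTTCCcggct
Nfkbia, chr12:55492667-55492676, first capital 29 bases before the start: ggcttGGAAATTCCCcgcgc
Nfkbid, chr7:30422225-30422234, first capital 181 bases before the start: gaacaGGAATTCCCCgtgcg
Nfkbie, chr17:45555594-45555603, first capital 106 bases before the start: aaacaGGGGGATTCCggagg
Rel, chr11:23771051-23771060, first capital 91 bases before the start: cagcgGGAAATCCCCccccc
Tnfaip2, chr12:111442637-111442646, first capital 24 bases before the start: ttttaGGAGGGCCCCtccag
Tnfaip3, chr10:19015413-19015422, first capital 12 bases before the start: ccatcGGAAATCCCCctgtt
Tnfaip8l1, chr17:56162343-56162352, first capital 148 bases before the start: ccggaGGAATCTCCCggccg
Tnfrsf25, chr4:152116315-152116324, first capital 28 bases before the start: ggtctGGGGGCCTCCacttc
Tnfrsf8, chr4:145315322-145315331, first capital 167 bases before the start: cgcagGGGAGCCCCCtgcgt
Tnfrsf9, chr4:150927957-150927966, first capital 42 bases before the start: agctgGGGATTTCCCaggag
Traf3, chr12:111166360-111166369, first capital 10 bases before the start: cccgcGGGGATTTCCagcgc
The promoter of Nfkbia is shown whole to place its match, over the 250 bases before the start, chr12:55492648-55492897, minus strand.
Nfkbia promoter: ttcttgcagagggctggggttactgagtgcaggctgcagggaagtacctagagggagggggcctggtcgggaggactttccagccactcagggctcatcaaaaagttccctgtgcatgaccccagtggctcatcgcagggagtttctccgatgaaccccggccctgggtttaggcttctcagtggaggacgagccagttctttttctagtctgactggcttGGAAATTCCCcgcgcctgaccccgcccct
A match is a description of letters, and the data do not show whether a factor bound there. Between UIRI and UIRI + BA, 7 of the 12 genes with a match were higher with BA and 5 were lower, and their median log2 fold change was 0.07. The 35 members with a promoter and no match split into 16 higher and 19 lower (median -0.02). A match therefore did not go with one direction. At an unadjusted p below 0.05 there were 3 of the 12 with a match and 3 of the 35 without, beside 10.3% of all genes. The difference between these shares was not tested.

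The deposited values are normalized counts (reads on a gene divided by a size factor of the library), and a log2 fold change is the mean of log2(normalized count + 1) in UIRI + BA minus that in UIRI, so it is understated for genes with few reads. Libraries held 16510720 to 38124164 reads on genes. UIRI replicate 3 was the deepest, 2.04 times the median of the other 5, and stood apart from its group. Principal components were taken from the genes with a mean of at least 10 normalized counts. On the first (41.8% of their variance), UIRI replicates 1 and 2 lay at -32.5 and -25.5. UIRI replicate 3 lay at 11.1, within the UIRI + BA range of 3.1 to 30.5. Values without UIRI replicate 3 are therefore given beside the main results that it moved. This library was singled out by these same values. Leaving out the untreated library that lay within the treated range favours larger differences, so p-values of that fit are descriptive only. Over all genes, limma placed 10.3% at an unadjusted p below 0.05, with 1087 higher and 884 lower, and upper quartile scaling turned this split to 925 and 1065.

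The tissue was checked against markers of its cell types, none of which was at 0 in all 6 libraries. The summed normalized count of 7 proximal tubule markers, among them Lrp2 and Slc34a1, ran from 44356 to 53581 in UIRI and from 56251 to 106434 in UIRI + BA, without overlap. All 7 were higher with BA, 6 of them at an unadjusted p below 0.05. The sum of 6 fibroblast markers ran from 64009 to 78086 in UIRI and from 45866 to 61844 in UIRI + BA, with 6 of 6 lower, 4 of them at an unadjusted p below 0.05. For 7 macrophage markers the ranges overlapped, 78347 to 110811 and 74498 to 86103, with 7 of 7 lower, 2 of them at an unadjusted p below 0.05. The sums of 7 T cell markers (1409 to 1800 and 1133 to 1934) and of 7 B cell and plasma cell markers (2140 to 2349 and 1939 to 2157) overlapped too. In each list 6 of 7 markers were lower and 1 was higher, with 0 at an unadjusted p below 0.05. The 7 injured tubule markers counted 3 higher and 2 lower at an unadjusted p below 0.05. Urothelial markers, a sign of tissue from the renal pelvis, were 6 of 6 lower with sums of 124 to 541 and 17.5 to 329, which overlapped, and none passed an unadjusted p of 0.05. Sums of podocyte, collecting duct and endothelial markers overlapped as well. These shifts stand beside every member value below, and their part in those values was not tested. In bulk cortex, fewer cells of a type and less RNA per cell cannot be told apart.

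Across the 58 genes, BA treatment was accompanied by small differences in both directions. By limma, 0 of 58 passed an adjusted p of 0.05, where 0% of all genes were called, and the smallest adjusted p among them was 0.336, for Tnfaip2. At an unadjusted p below 0.05 there were 7 of 58 (12.1%), 2 higher and 5 lower with BA, against 10.3% of all genes, so the share lay near the background. edgeR's quasi-likelihood test gave 0 by adjusted p and 7 of 55 tested by unadjusted p (9.93% of all genes). DESeq2 gave 0 by adjusted p, where it called 1.49% of all genes, and 6 by unadjusted p (7.88%). The groups did not overlap for 5 of 58 genes (8.6%), against 14.4% of all genes. Of the 58, 27 were higher and 31 lower. The median log2 fold change was -0.02, beside -0.005 for all genes. The differences ran from -0.99 for Tnfrsf19 to 0.60 for Tnfrsf25.

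**Figure D1:**
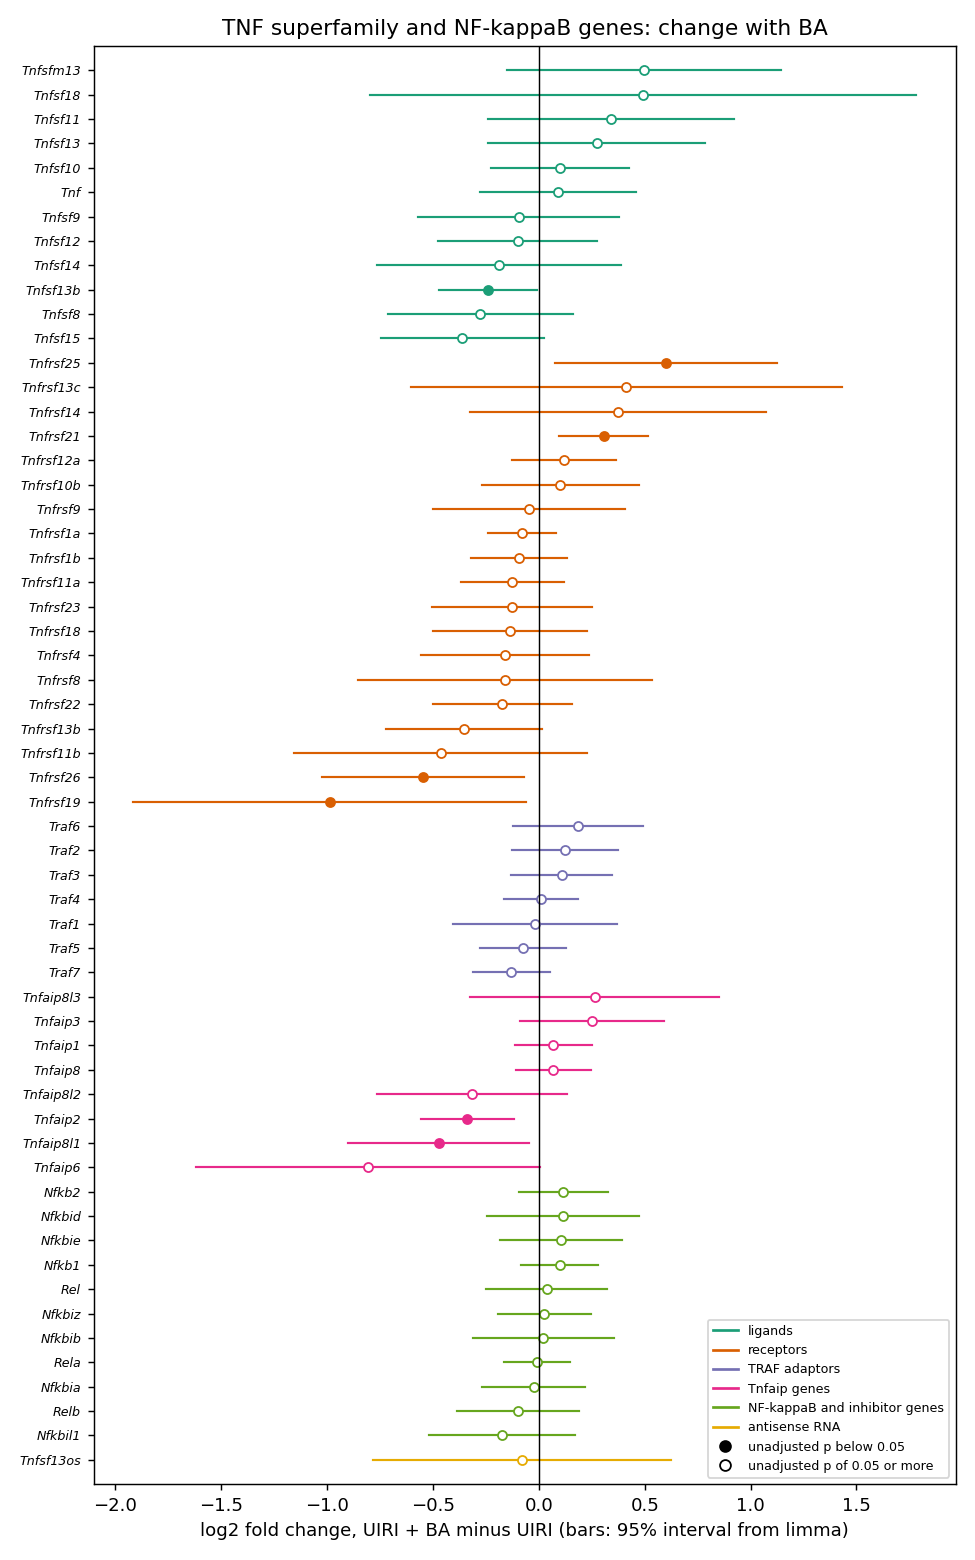
Log2 fold change (UIRI + BA minus UIRI) of each of the 58 genes on the horizontal axis, ordered within its role, with the 95% interval from limma as a bar; filled points have an unadjusted p below 0.05. The 11 NF-kappaB genes lie between -0.17 and 0.12, while the receptors run from -0.99 to 0.60.

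The width of the intervals says which differences these libraries could have shown. For 49 of the 58 genes the 95% interval lay within a log2 fold change of 1 in either direction (a 2-fold difference), and for 29 of 58 within 0.5 (1.41-fold). The intervals that reached past 1 belonged to 9 genes, Tnfsf18, Tnfsfm13, Tnfrsf11b, Tnfrsf13c, Tnfrsf14, Tnfrsf19, Tnfrsf25, Tnfrsf26 and Tnfaip6. Tnfsf18, the ligand of GITR, had 1 to 10 reads per library, and Tnfrsf13c, the BAFF receptor, had 4 to 15. Tnfaip6, a secreted hyaluronan-binding protein, had 4 to 19. The intervals of these 3 held both no difference and a 2-fold one. All 58 genes had a read in every library, and for 55 the mean over libraries was 10 normalized counts or more.

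The ligands were present over a wide range of levels. Per kilobase of annotated exon, so that genes of different length can be compared, Tnfsf10 (TRAIL, a ligand that can trigger apoptosis) and Tnfsf12 (TWEAK) led with a mean over the 6 libraries of 329 normalized counts per kilobase each. The ranges of these 2 overlapped, while Tnfsf13b followed at 146 without overlap with either. Tnf itself lay sixth of 12, at 86.3 per kilobase. It could not be ranked apart from Tnfsf8 at 92.6 or Tnfsf15 at 102, whose ranges it overlapped. The lowest was Tnfsf18 at 2.5 per kilobase. The level of Tnfsf12 is uncertain, because 48.3% of its exon bases are shared with Tnfsfm13 on the same strand, and 60.0% of those of Tnfsf13 are as well.

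**Figure D2:**
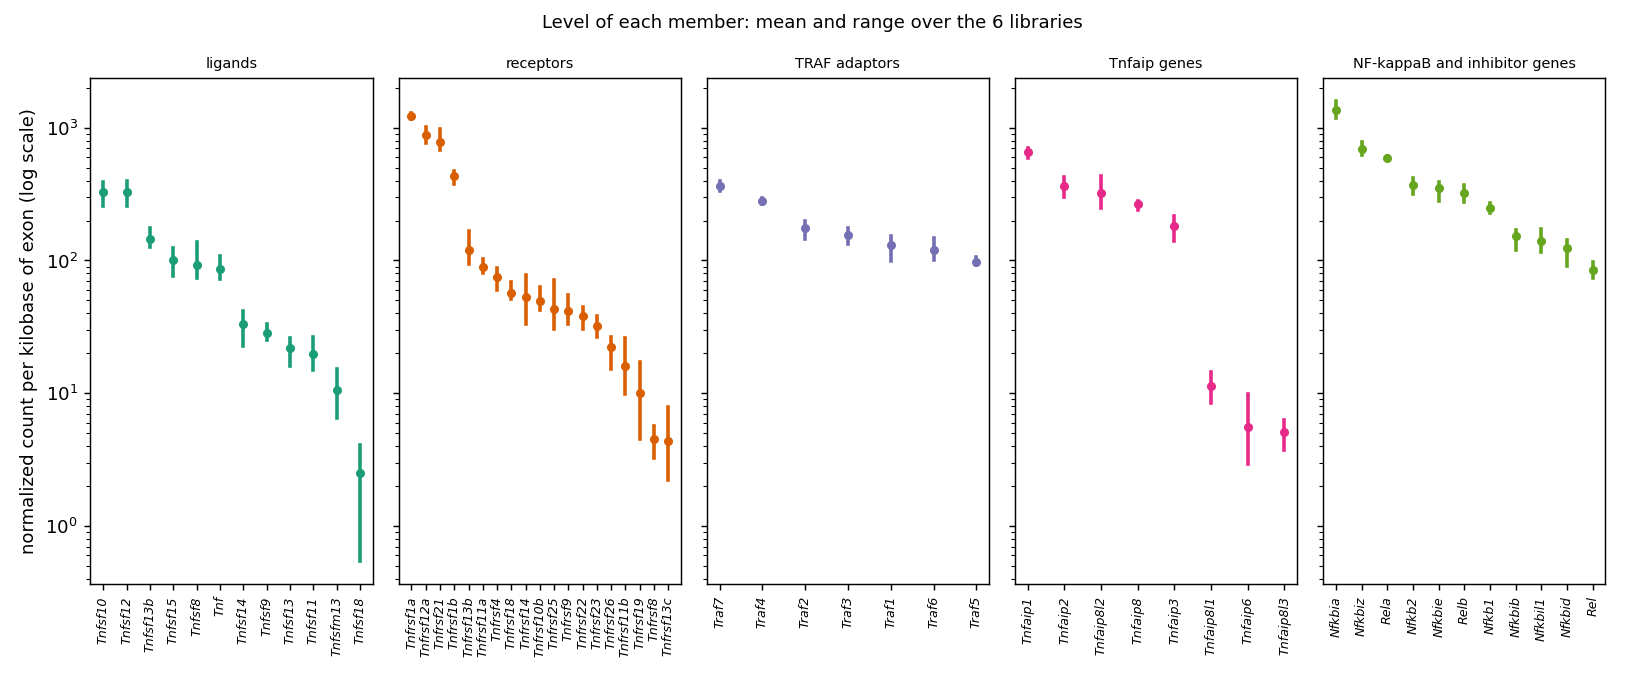
Level of each gene except the antisense RNA in normalized counts per kilobase of exon (log scale), by role; points are means over the 6 libraries of both groups and bars run from the lowest to the highest library. Nfkbia at 1372 and Tnfrsf1a at 1228 are the highest, and Tnfsf18 at 2.5 is the lowest.

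Tnf, the founding cytokine of the family, did not differ between the groups beyond the spread of the libraries. Its normalized counts were 133, 134 and 142 in UIRI against 145, 178 and 118 in UIRI + BA. The 3 UIRI libraries sat close together, within the range of the treated ones, of which replicate 3 was the lowest of all 6 and replicate 2 the highest. The log2 fold change was 0.09 (95% interval -0.28 to 0.46; limma adjusted p = 0.852), on 113 to 259 reads per library. It was -0.05 without UIRI + BA replicate 2, so its direction rests on that library.

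The study also had an RT-qPCR assay for Tnf, whose primers show which part of the transcript it reads. They match the 1639-base transcript Tnf-201 of GENCODE M21 (GRCm38, minus strand of chromosome 17) at bases 397 to 419 and 439 to 457. The amplicon of 61 bases is coding, and each primer crosses an exon junction, the forward one from exon 2 to 3 and the reverse one from exon 3 to 4 of 4 exons. On the genome the pair spans chr17:35200563-35201095, introns included. The primers are written 5′ to 3′.
Tnf forward primer: ccctcacactcagatcatcttct
Tnf reverse primer: gctacgacgtgggctacag
RT-qPCR values were not used here, and the read counts cover the whole gene.

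Tnfsf13b (BAFF, a survival factor of B cells; chr8:10006467-10039072) was the only ligand at an unadjusted p below 0.05. Its counts were 1207, 1123 and 944 in UIRI against 965, 919 and 872 in UIRI + BA. Replicates 1 and 2 of UIRI lay above every treated library and UIRI replicate 3 lay among them. This is a log2 fold change of -0.24 ± 0.10 (SE; unadjusted p = 0.0428, limma adjusted p = 0.479), and the unadjusted p stayed below 0.05 in 2 of 6 fits that left a library out. It was -0.34 without UIRI replicate 3, with an adjusted p of 0.045, and -0.17 without UIRI replicate 1, with an unadjusted p of 0.173. Of its receptor genes, Tnfrsf13b (TACI) measured 475, 385 and 302 against 307, 324 and 265. This was a log2 fold change of -0.35 (limma adjusted p = 0.499). Without UIRI replicate 3 it was -0.52 (adjusted p = 0.054), and without UIRI replicate 1 it was -0.19. The BAFF receptor Tnfrsf13c leaned the other way, at 4.53, 11.2 and 6.57 in UIRI against 7.52, 16.2 and 7.30 in UIRI + BA. Its log2 fold change was 0.41 (limma adjusted p = 0.749), on 4 to 15 reads per library. The ligand and its receptors thus did not share 1 direction. The sum of B cell and plasma cell markers given above overlapped between the groups, with 6 of 7 markers lower and 1 higher with BA.

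Among the other ligands no unadjusted p was below 0.05. Tnfsf10 measured 1634, 1363 and 2053 in UIRI against 2014, 1712 and 1631 in UIRI + BA (log2 fold change 0.10, limma adjusted p = 0.812). The lowest and the highest of the 6 were both UIRI libraries. Left out, UIRI replicate 3 gave 0.25 (unadjusted p = 0.0448) and UIRI replicate 2 gave -0.04. Tnfsf15 (TL1A, a ligand of the receptor encoded by Tnfrsf25) measured 324, 403 and 415 against 383, 257 and 259, with a log2 fold change of -0.36 (95% interval -0.75 to 0.03), from -0.55 to -0.26 with each library left out. Over the 12 ligands, 6 were higher and 6 lower, with a median of -0.002.

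The receptors held the largest differences of the family in both directions, in genes with few reads (Tnfrsf19 17 to 149 and Tnfrsf25 69 to 129 per library). With BA, 6 of 19 were higher and 13 were lower (median log2 fold change -0.12). By unadjusted p below 0.05, 2 were higher and 2 lower, beside 5.67% and 4.61% of all genes. Tnfrsf1a (TNFR1, the main receptor of soluble TNF, which carries a death domain) was the most abundant at 1228 per kilobase, above Tnfrsf12a at 887 and Tnfrsf21 at 786, whose ranges overlapped, and Tnfrsf1b (TNFR2) at 432. Below these 4, each receptor's range overlapped that of the next, from Tnfrsf13b at 121 to Tnfrsf13c at 4.34 per kilobase. Tnfrsf1a measured 3344, 3310 and 3148 in UIRI against 2999, 3236 and 3050 in UIRI + BA, with a log2 fold change of -0.08 (95% interval -0.24 to 0.08). Most of the treated libraries lay below the UIRI range, but the groups overlapped at UIRI replicate 3.

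Tnfrsf21 (death receptor 6; chr17:43016555-43089189) was higher with BA in every library. Its counts were 2788, 2784 and 3082 in UIRI against 3435, 3285 and 4009 in UIRI + BA, and the lowest treated library exceeded the highest untreated one. The difference was 0.31 ± 0.09 (log2 fold change ± SE; unadjusted p = 0.00889, limma adjusted p = 0.354), and it ran from 0.22 to 0.36 with each library left out, with an unadjusted p below 0.05 in 6 of 6. The exact permutation p was 0.1, the smallest that 3 against 3 can give.

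Tnfrsf25 (death receptor 3; chr4:152115934-152120119) was also higher without overlap, at 78.2, 82.1 and 69.0 against 162, 117 and 82.4. UIRI + BA replicate 1 was the highest and UIRI + BA replicate 3 lay just above the UIRI range. Their log2 fold change was 0.60 ± 0.23 (SE; unadjusted p = 0.0296, limma adjusted p = 0.448), and 0.36 without UIRI + BA replicate 1, with an unadjusted p of 0.116. Its promoter carries the kappaB match printed above.

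Tnfrsf19 (TROY; chr14:60963875-61046490) had the lowest fold change, at 73.6, 33.7 and 81.6 in UIRI against 21.3, 22.6 and 51.1 in UIRI + BA. The groups overlapped, since UIRI replicate 2 was low and UIRI + BA replicate 3 was high. limma gave a log2 fold change of -0.99 ± 0.41 (SE; unadjusted p = 0.0394, limma adjusted p = 0.472), on 17 to 149 reads per library. With a library left out, the unadjusted p stayed below 0.05 in 2 of 6 fits. It was -0.76 without UIRI replicate 3 (limma unadjusted p = 0.118). It was -1.38 without UIRI replicate 2 and also without UIRI + BA replicate 3 (limma unadjusted p of 0.00596 and 0.00629).

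Tnfrsf26 (chr7:143607659-143628722), which lies in a mouse cluster of similar receptors with Tnfrsf22 and Tnfrsf23, measured 83.8, 83.2 and 86.0 in UIRI against 48.9, 78.6 and 49.0 in UIRI + BA. The groups did not overlap, and UIRI + BA replicate 2 came close to the UIRI libraries. On the log2 scale the fold change was -0.55 ± 0.21 (SE; unadjusted p = 0.0285, limma adjusted p = 0.448), with an unadjusted p below 0.05 in 1 of 6 fits that left a library out. Counting could have split reads between these similar copies, and Tnfrsf22 and Tnfrsf23 had log2 fold changes of -0.17 and -0.13.

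**Figure D3:**
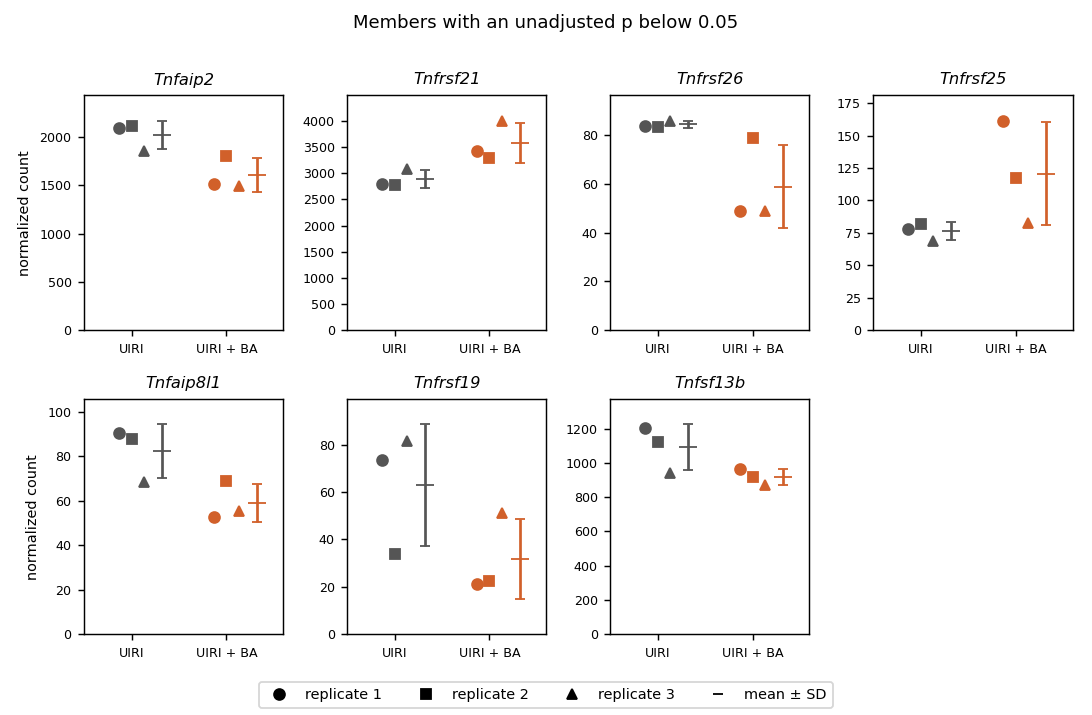
Normalized count (vertical axis, from 0) of the 7 genes with an unadjusted p below 0.05, with 1 point per library and mean ± SD beside the points (n = 3 per group). Tnfaip2, Tnfrsf21, Tnfrsf26 and Tnfrsf25 show no overlap between UIRI and UIRI + BA, and the other 3 overlap.

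Ligand and receptor pairs known from kidney injury were read side by side. For the TWEAK pair, Tnfsf12 measured 597, 568 and 389 in UIRI against 416, 534 and 482 in UIRI + BA, with a log2 fold change of -0.10 (95% interval -0.48 to 0.28). UIRI replicate 3 was the lowest of the 6 libraries, and without it the log2 fold change was -0.29 (limma adjusted p = 0.154). Its receptor Tnfrsf12a (Fn14) measured 1613, 1659 and 1639 against 1483, 1959 and 1933, with UIRI + BA replicate 1 below and replicates 2 and 3 above the narrow UIRI range (log2 fold change 0.12, 95% interval -0.13 to 0.37). Without UIRI + BA replicate 1 it was 0.25, with an unadjusted p of 0.0123.

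In the RANKL system, the ligand Tnfsf11 measured 35.1, 36.0 and 43.8 against 57.6, 59.2 and 33.4 (log2 fold change 0.34, limma adjusted p = 0.648). UIRI + BA replicate 3 was the lowest library and the other treated libraries were the highest. Without it the log2 fold change was 0.60 (unadjusted p = 0.0249), and without UIRI + BA replicate 2 it was 0.20. The receptor RANK, Tnfrsf11a, measured 587, 612 and 491 against 479, 527 and 539 (-0.12, adjusted p = 0.689), and its fold change was -0.22 without UIRI replicate 3 (unadjusted p = 0.0387). The decoy receptor osteoprotegerin, Tnfrsf11b, measured 39.7, 43.9 and 73.4 against 32.6, 28.0 and 52.2 (-0.46, adjusted p = 0.611). Leaving out UIRI replicate 3 gave -0.20 and leaving out UIRI + BA replicate 3 gave -0.72 (unadjusted p = 0.0452). In each of the 3 genes the groups overlapped.

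The TRAF adaptors, which link receptors to kinases, gave no unadjusted p below 0.05 among the 7. Their log2 fold changes ran from -0.13 for Traf7 to 0.19 for Traf6, with a median of 0.01. Traf7 was the most abundant at 364 per kilobase and measured 2332, 2306 and 2055 in UIRI against 1945, 2155 and 2014 in UIRI + BA (limma adjusted p = 0.593). UIRI replicate 3 lay within the treated range and replicates 1 and 2 above it. With UIRI replicate 3 left out, Traf7 was at -0.19 (unadjusted p = 0.0274) and Traf6 at 0.32 (unadjusted p = 0.0157). Traf4 was next at 282 per kilobase with a log2 fold change of 0.01. From Traf2 at 175 down to Traf5 at 97.1 the ranges of neighbours overlapped. Traf2, which binds TNFR2 and the TNFR1 complex, had a log2 fold change of 0.12, and Traf1 had -0.02. With that library left out these were 0.02 and -0.21, and Traf4 was at -0.02.

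The first Tnfaip genes were named for their induction by TNF, and Tnfaip8l1, Tnfaip8l2 and Tnfaip8l3 for their likeness to Tnfaip8. Of the 8, 4 were higher with BA and 4 lower (median -0.12). At an unadjusted p below 0.05, 2 were lower and 0 higher, beside 4.61% and 5.67% of all genes. Tnfaip1 was the most abundant at 652 per kilobase and measured 2250, 2358 and 2611 against 2414, 2508 and 2640, a log2 fold change of 0.07 (95% interval -0.11 to 0.25), and 0.13 without UIRI replicate 3.

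Tnfaip2 (chr12:111442469-111455018), known for its part in the formation of thin membrane bridges between cells, had the smallest p of the family. Its counts were 2096, 2118 and 1850 in UIRI against 1510, 1804 and 1495 in UIRI + BA, so that all treated libraries lay below all untreated ones, with 1804 and 1850 as the nearest values. The group means were 2021 ± 149 and 1603 ± 174 (SD, n = 3). The log2 fold change was -0.34 ± 0.10 (SE; unadjusted p = 0.00697, limma adjusted p = 0.336), from -0.43 to -0.29 with each library left out and with an unadjusted p below 0.05 in 6 of 6. Macrophage markers were lower as well, with the overlapping sums given above.

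Tnfaip8l1 (TIPE1; chr17:56162477-56173955) measured 90.6, 87.7 and 68.5 against 52.6, 68.9 and 55.3, with UIRI replicate 3 just below the highest treated library. Its log2 fold change was -0.47 ± 0.19 (SE; unadjusted p = 0.0330, limma adjusted p = 0.458), and the unadjusted p stayed below 0.05 in 2 of 6 fits that left a library out and was 0.0742 by DESeq2. Tnfaip6 did not overlap between groups, at 10.2, 16.9 and 10.4 against 5.01, 7.54 and 7.30 (log2 fold change -0.81, adjusted p = 0.489), with few reads behind each value.

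Tnfaip3 (A20, which dampens signalling to the IkappaB kinases) depended on UIRI replicate 3. Its counts were 1015, 1057 and 1526 in UIRI against 1319, 1570 and 1335 in UIRI + BA. Replicates 1 and 2 of UIRI lay below every treated library, and replicate 3 lay among them. With all libraries the log2 fold change was 0.25 ± 0.15 (SE; limma adjusted p = 0.576), and without UIRI replicate 3 it was 0.44 ± 0.09 (adjusted p = 0.034).

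The genes of NF-kappaB and its regulators spanned a narrower range of differences than the receptors, and were more abundant, at a median of 323 per kilobase against 49.5. Of 11, 7 were higher and 4 lower with BA, 0 had an unadjusted p below 0.05, the log2 fold changes ran from -0.17 for Nfkbil1 to 0.12 for Nfkb2, and the smallest limma adjusted p was 0.667. Leaving out UIRI replicate 3 turned the split to 5 higher and 6 lower, and Nfkbil1 was at -0.35 with an unadjusted p of 0.0120. For the 5 subunit genes, the farthest bound of a 95% interval lay at a log2 fold change of 0.38 from no difference, which is 1.31-fold. Among the abundant receptors, Tnfrsf1a (-0.08), Tnfrsf1b (-0.09) and Tnfrsf12a (0.12) had similarly small differences, and Tnfrsf21 (0.31) had a larger one. The part of read depth in the contrast with the receptors was not tested.

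Rela (p65, the main activating subunit; chr19:5637483-5648130) measured 1889, 1770 and 1787 in UIRI against 1755, 1836 and 1821 in UIRI + BA. The libraries of the groups were interleaved, with a log2 fold change of -0.01 (95% interval -0.17 to 0.15). Nfkb1 (p105, the precursor of p50; chr3:135584655-135691547) measured 2750, 3075 and 2896 against 3255, 3198 and 2887, with treated replicates 1 and 2 above the UIRI range (0.10, 95% interval -0.08 to 0.28). Rel (c-Rel, of lymphoid and myeloid cells; chr11:23736847-23770970) measured 551, 598 and 723 against 727, 582 and 609 (0.04, and 0.15 without UIRI replicate 3). It was the lowest of the 11 genes at 84.6 per kilobase.

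The subunits of the noncanonical arm lay on opposite sides of 0. Nfkb2 (p100, the precursor of p52; chr19:46304320-46312385) measured 1719, 1755 and 1462 in UIRI against 1756, 1907 and 1676 in UIRI + BA, with a log2 fold change of 0.12. Relb (chr7:19606217-19629438) measured 1352, 1444 and 1100 against 1075, 1392 and 1169, a log2 fold change of -0.10. In both genes UIRI replicate 3 was below the other UIRI libraries and the groups overlapped. Without it, Nfkb2 was at 0.03 and Relb at -0.21 (unadjusted p = 0.0771).

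Nfkbia (IkappaB alpha; chr12:55489410-55492647) had the highest mean of all 58 genes at 1372 per kilobase, with a range that overlapped that of Tnfrsf1a, and was followed within its class by Nfkbiz at 697 and Rela at 589, none of which overlapped its neighbour. It measured 2145, 2151 and 2364 in UIRI against 1904, 2543 and 2147 in UIRI + BA, with both the lowest and the highest library in the treated group. The log2 fold change was -0.02 (95% interval -0.27 to 0.22; limma adjusted p = 0.948). Nfkbib, Nfkbie, Nfkbid and Nfkbiz had log2 fold changes from 0.02 to 0.12. Leaving out UIRI replicate 3 put Nfkbia at 0.02, Nfkbib at -0.15, Nfkbid at -0.07, Nfkbie at -0.02 and Nfkbiz at 0.07.

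**Figure D4:**
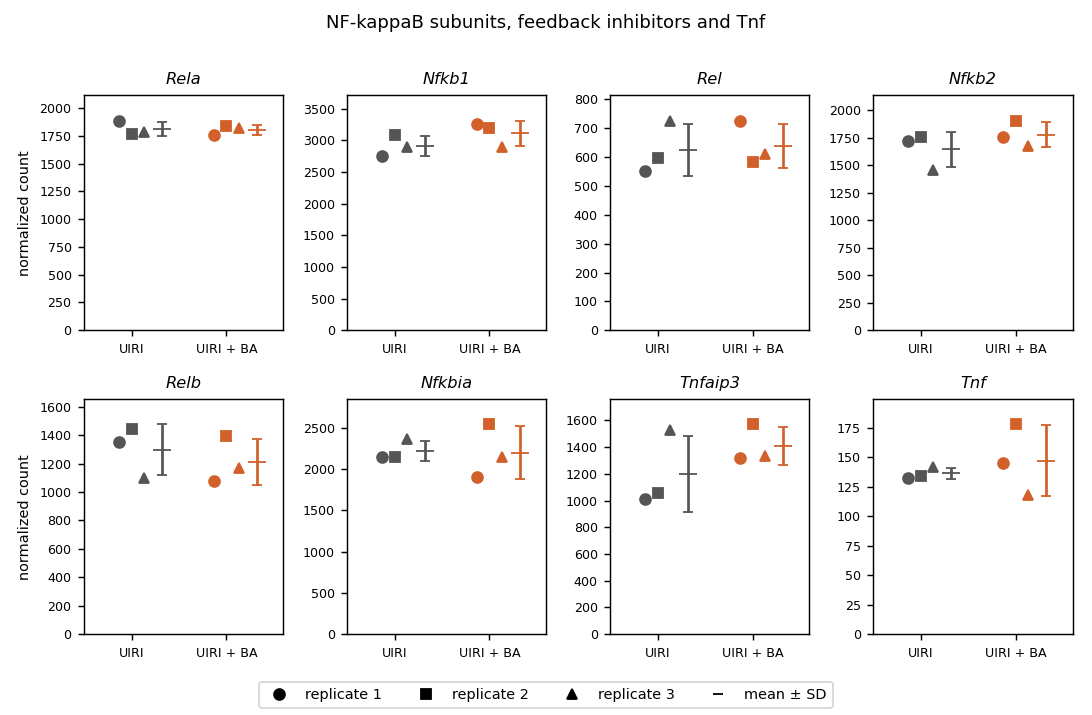
Normalized count (vertical axis, from 0) of the 5 NF-kappaB subunit genes, the inhibitors Nfkbia and Tnfaip3, and Tnf, with 1 point per library and mean ± SD beside the points (n = 3 per group). The groups overlap in all 8 panels, and UIRI replicate 3 of Tnfaip3, at 1526, lies among the treated libraries.

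UIRI replicate 3 also differed from UIRI replicates 1 and 2 in the genes of the pathway. On the log2 scale, its distance from the mean of those 2 had a median absolute size of 0.29 over the 58 genes and 0.23 over all genes. Of the 11 NF-kappaB genes, 8 were lower in replicate 3, with a median of -0.25, where 9370 of all genes were lower and 9805 higher, with a median of 0.009. Receptors counted 8 lower and 11 higher, and ligands 5 and 7. Among the lower NF-kappaB genes were Nfkbid (-0.55), Nfkbib (-0.51) and Relb (-0.35). Tnfaip3 was higher there by 0.56 and Tnfrsf14 by 0.83, and Tnfaip8l2 was lower, at -0.72.

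Without UIRI replicate 3, 4 of 58 genes (6.9%) passed an adjusted p of 0.05 by limma, against 5.02% of all genes. These were Tnfaip3 at 0.44, Tnfaip8l2 (TIPE2) at -0.56, Tnfaip2 at -0.40 and Tnfsf13b at -0.34, with adjusted p from 0.034 to 0.045. By unadjusted p there were 14 of 58 (24.1%), 5 higher and 9 lower, against 25.2% of all genes (13.7% higher and 11.5% lower). Without UIRI replicate 1 there were 4 of 58 (6.9%) against 4.21%, and without UIRI + BA replicate 2 there were 4 against 9.7%. With single libraries left out, the members' count thus ran from 4 to 14 and was highest where the background was highest. Over all genes, 962 passed an adjusted p of 0.05 without UIRI replicate 3, and 0 with any other library left out. Because UIRI replicate 3 was chosen from these same values, the adjusted p-values of that fit are no separate support.

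**Figure D5:**
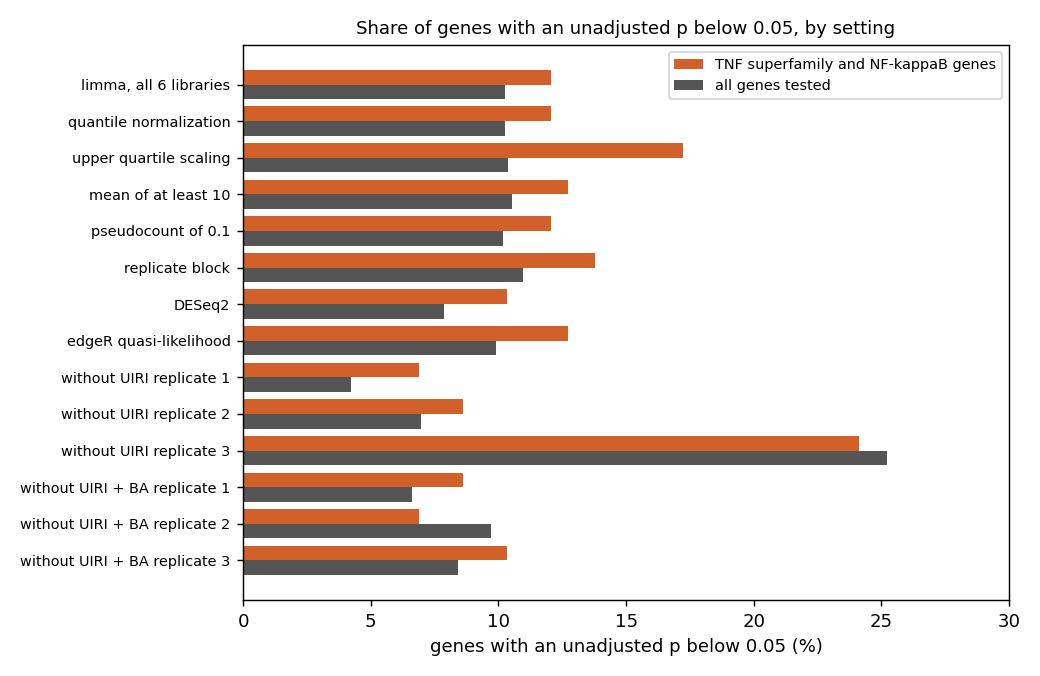
Percent of genes with an unadjusted p below 0.05 (horizontal axis, from 0) among the TNF superfamily and NF-kappaB genes and among all genes tested, for each setting of the test. The highest pair of bars is that without UIRI replicate 3, at 24.1% and 25.2%.

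Superfamily genes whose symbols do not match the rule were followed as a list of their own, 14 of 15 of which were in the table (Cd70 had no row). The treated group was higher in 5 and lower in 9, with a median of -0.04, and 1 had an unadjusted p below 0.05. This was Fasl, the Fas ligand of cytotoxic lymphocytes, at 49.8, 43.9 and 41.1 in UIRI against 26.3, 33.4 and 28.2 in UIRI + BA. All treated libraries were below all untreated ones, with a log2 fold change of -0.60 (limma adjusted p = 0.408). The count at an unadjusted p below 0.05 was 3 (21.4%) with UIRI replicate 3 left out, where 25.2% of all genes passed. It was 0 with UIRI replicate 1 left out, where 4.21% of all genes did. The sums of T cell markers overlapped, as given above, with 6 of 7 markers lower and 1 higher.

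Between the receptors and NF-kappaB, 31 genes for adaptors, kinases and ubiquitin enzymes were followed. The treated group was higher in 19 and lower in 12, with a median of 0.03, and 1 (3.2%) had an unadjusted p below 0.05, Cflar (c-FLIP, which blocks caspase-8), at 2849, 2895 and 4030 against 4182, 3785 and 3870 (log2 fold change 0.29, limma adjusted p = 0.486). With quantile normalization, upper quartile scaling, the mean filter, DESeq2 or edgeR, 0 of the 31 were higher at an unadjusted p below 0.05. Cflar did not pass there, and the 1 gene counted by quantile normalization and the 1 by DESeq2 were lower. For Cflar, UIRI replicate 3 lay among the treated libraries. Without it, 6 of the 31 (19.4%) had an unadjusted p below 0.05, where 25.2% of all genes did, against 10.3% of all genes with every library. Of these 6, 2 were higher and 4 lower, and the median of the 31 was -0.02. The IkappaB kinase genes Chuk, Ikbkb and Ikbkg had log2 fold changes of 0.18, 0.11 and 0.06, with adjusted p of 0.546 to 0.825.

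The textbook targets of NF-kappaB were split. The treated group was higher in 14 of 28 and lower in 14 (median 0.003), and 7 (25.0%) had an unadjusted p below 0.05, 3 higher and 4 lower, where 10.3% of all genes did. None passed an adjusted p of 0.05 by limma. Mmp9, a matrix-degrading protease, measured 263, 238 and 223 in UIRI against 135, 157 and 127 in UIRI + BA (log2 fold change -0.79, adjusted p = 0.225). Lcn2, a secreted marker of tubular injury, measured 5260, 4687 and 4507 against 3137, 3469 and 3539 (-0.51, adjusted p = 0.225). Both were lower with BA in every library, as was the neutrophil chemokine Cxcl5 (-0.25, adjusted p = 0.443).

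Other targets went the opposite way. C3, the central complement component, measured 17262, 19166 and 17138 in UIRI against 26577, 30809 and 23775 in UIRI + BA (log2 fold change 0.59, limma adjusted p = 0.225). Vcam1, an adhesion molecule also found on injured tubule cells, measured 13846, 15765 and 12595 against 17766, 17781 and 17980 (0.35, adjusted p = 0.311). Ccl2, the monocyte chemokine MCP-1, measured 1708, 2011 and 2122 against 2131, 2909 and 2403 (0.34, adjusted p = 0.433). In these 3 genes every treated library was above every untreated one, although the margin for Ccl2 was small. Lcn2 and Vcam1 also stand on the list of injured tubule markers.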

How the data were processed

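The 6 libraries of renal cortex RNA were grouped by their labels as UIRI and UIRI + BA, 3 each. By the methods, HISAT2 was used for alignment, FeatureCounts for counting and DESeq2 for the authors' tests. The genome build and the strand setting of the counting are not given in the sources used here. The authors deposited, for each gene, a signal in every library; it equals reads over the library's size factor, since 100% of values gave whole reads (tolerance 0.01). Deposited columns of fold changes and p-values, and tables of Gene Ontology and KEGG enrichment, hold the authors' own comparisons and were not used.

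Values were tested as log2(value + 1) with limma 3.58.1 (R 4.3.3), with an intensity trend, no covariate and Benjamini-Hochberg adjustment over 19176 rows. DESeq2 1.42.0 and edgeR 4.0.16 (quasi-likelihood test) were run on recovered reads as alternatives; edgeR tested 17155 genes, and DESeq2 gave no adjusted p to 9 of the 58 members. Also tried were upper quartile scaling, quantile normalization, a mean of at least 10, a pseudocount of 0.1, a replicate block and each library left out. Exact permutation tests were two-sided.

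Positions and exon lengths came from GENCODE M21 (GRCm38), and were tied to the measured genes by symbol only; promoters came from RefSeq (GRCm38.p6). The members and all lists were chosen with earlier results of these data known. Values per library are given by a rule for Tnf, the subunits, Nfkbia and Tnfaip3, members with an unadjusted p below 0.05, the most abundant member of each role, and the TWEAK and RANKL systems. It also names genes of the 3 further lists with an unadjusted p below 0.05, at most 6 a list; other members given with a value, such as Tnfsf15, Tnfrsf13b, Tnfaip6 and Tnfaip8l2, and the IkappaB kinase genes were added after their values were seen. Depth was 16510720 to 38124164 reads on genes, and precision was limited by 3 libraries per group and, for genes with few reads, by counting error.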

Additional observations from a re-analysis of the deposited data

How the results depend on the processing

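No member had an adjusted p below 0.05 under quantile normalization, upper quartile scaling, the mean filter, the pseudocount of 0.1, the replicate block, DESeq2 or edgeR. Under these settings 6 to 10 members (10.3% to 17.2%) passed an unadjusted p of 0.05, where 7.88% to 11.0% of all genes did. Adjusted calls over all genes were 6 with the replicate block and 213 with DESeq2. With each library left out, members called by adjusted p ranged from 0 to 4 and by unadjusted p from 4 to 14, and all genes from 0 to 962 and from 808 to 4838; the highest counts came without UIRI replicate 3. The other superfamily list counted 0 by DESeq2 and 0 to 3 with a library left out. The pathway list counted 2 with upper quartile scaling and with the replicate block, 0 with the mean filter and with edgeR, and 0 to 6 with a library left out. Its 2 with upper quartile scaling, and its 1 each with quantile normalization and DESeq2, were lower with BA, where the main fit had 1 higher. The cause was not tested.

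Of 24 genes given per library, 18 kept their direction in all settings. Directions turned, each with 1 library left out, for Tnf (range -0.0549 to 0.2389), Rela (-0.0264 to 0.0202, with 0.0110 also turned), Rel (-0.0586 to 0.1482, with -0.0484 also turned), Nfkbia (-0.1328 to 0.0757, with 0.0233 also turned), Tnfsf10 (-0.0421 to 0.2530) and Tnfsf12 (-0.2937 to 0.0140). Of 312 such values under alternatives, 272 kept direction and side of an unadjusted p of 0.05.

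Replicate numbers are shared by the groups. Deviations of same-numbered libraries from their group means correlated at -0.24, 0.304 and 0.155, and those of differently numbered libraries at -0.413 to 0.235. With 3 libraries per group, this cannot decide whether the numbers are a pairing. The replicate block gave 8 members (13.8%) by unadjusted p, in place of 7, where 11.0% of all genes passed. Tnfsf18, with 1 to 10 reads per library, had the widest 95% interval of the members.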
